A study of Mus musculus with 28 samples.

Results

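The genes described here are those whose expression in the first mouse molar was highest at the cap stage. A protein-coding gene was taken as a member when its lowest level over the 7 E14 teeth exceeded its highest level over all 7 E13 and all 7 E16 teeth, and when its E14 median was at least 1 CPM (the read count of a gene divided by the total of its library and multiplied by 1000000). In all, 162 of the 13264 protein-coding genes with an E14 median of at least 1 CPM were members, or 1.22%, in a table of 52636 genes of which 21896 are protein-coding. The members were thus chosen by their values in all 21 teeth of E13, E14, and E16, and the height of the E14 peak is given as a description with no test. By the same rule turned to the other stages, 315 genes peaked at E13 and 824 at E16, and 36 genes had all E14 teeth below all others.

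At the bud stage the dental epithelium grows into condensed mesenchyme. At the cap stage it folds around the dental papilla, and a transient group of nondividing cells in its centre, the primary enamel knot, secretes ligands such as Shh and Fgf4 that control growth and cusp patterning. By the bell stage the crown shape is being set by secondary enamel knots, and the epithelium has several layers.

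Each library was made from 1 dissected tooth germ labelled molar 1, and the E13, E14, and E16 mice were of the strain C57BL/6JOlaHsd, with no mutation or treatment named. The names E13, E14, and E16 stand for teeth labelled E13.5, E14.5, and E16.5. The E13 teeth came from 7 embryos, the E14 teeth from 6, and the E16 teeth from 5, so that some E14 and E16 teeth are the left and right teeth of 1 embryo and are not separate animals. A further 6 teeth labelled E15 came from 6 embryos and are present only in a second table of estimated counts, together with the E13 and E16 teeth. Another tooth labelled E15, the right one of embryo 5, had no counts and was not analyzed. The E13 tooth whose column names its embryo as X was kept in the E13 group, and 171 genes met the rule without it.

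The E13, E14, and E16 libraries held from 17814073 to 27115729 counts, with stage medians of 22833213, 24478310, and 25598732. The median share of counts in protein-coding genes was 84.2% at E13 and 88.7% at E14, and it was 88.5% at E16. The left tooth of E16 embryo 3 stood apart with the smallest library and with 592 CPM of Actb, against 3045 to 4204 CPM in the other E16 teeth. One E13 tooth had a summed level of 1377 CPM of 12 skeletal muscle markers, against a stage median of 63.9 CPM, and one E14 tooth had 1284 CPM of 10 bone markers, against a stage median of 429 CPM. Krt14 and Epcam, which mark epithelium, were detected at every stage, with medians of 157, 239, and 379 CPM for Krt14 and of 42.4, 62.7, and 76.9 CPM for Epcam at E13, E14, and E16. The dental mesenchyme markers summed to medians of 7934, 8754, and 10426 CPM at E13, E14, and E16, with 3886 CPM in the left tooth of E16 embryo 3. This sum does not stand for most of its 12 genes. Col1a1 rose, with medians of 2133, 3232, and 5144 CPM, whereas Msx1 fell, with 454, 383, and 171 CPM. In the edgeR test described below, 2 of the 12 were higher and 6 lower at E16 than at E13, against 21.6% and 19.6% of all genes tested. In whole teeth, fewer cells of a type and less RNA per cell cannot be told apart.

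Together the members took 1.93% to 2.09% of all counts in the E14 teeth. Their share was 1.37% to 1.46% in the E13 teeth and 0.69% to 1.51% in the E16 teeth, with the left tooth of E16 embryo 3 as the lowest. For most members the peak was low. The peak ratio, which is the E14 median plus 0.5 CPM over the higher of the E13 and E16 medians plus 0.5 CPM, had a median of 1.54 over the members and a range of 1.09 to 12.1. It was at least 2 for 45 members. The tooth that came nearest to E14 was an E16 tooth for 98 members and an E13 tooth for 64 members, and the E16 median was above the E13 median for 96 members. The left tooth of E14 embryo 8 was the lowest E14 tooth for 44 members.

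The members reached from weakly to strongly expressed genes. Their E14 medians had a median of 38.1 CPM, against 29.4 CPM over all 13264 genes. The 42 members with an E14 median under 10 CPM had a median peak ratio of 2.41, and the 120 others one of 1.39. At the threshold, the members nearest to it were Scn4b with a lowest E14 tooth of 1.716 CPM against a highest other tooth of 1.715 CPM, Ccna2 with 171.6 against 171.4 CPM, and Crym with 8.919 against 8.912 CPM. The nearest genes outside it were Igf1r with 479.66 against 479.69 CPM, Cacng5 with 0.544 against 0.546 CPM, and Utp4 with 42.3 against 42.4 CPM. Igf1r, the receptor of insulin-like growth factor, and Ccna2, a cyclin of S phase and mitosis, thus fell on different sides of the threshold by a narrow margin.

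Examples of promoters are shown, since the genes of the set share a peak in time and the promoter is where such genes could share letters. RefSeq promoters of build GRCm38.p6, reaching from 250 bases before to 50 bases after a start site, were matched for 107 of the 162 members. Egr3, Nptx1, and Nptx2 had none. The start site was not always near the annotated start of the gene, with distances of 14019 bases for Fgf4 and 55353 bases for Pear1. For Egr2, Etv5, and Syn1 the distances were 24, 149, and 86 bases. Of 8 motifs searched on both strands, the GC box (GGGCGG or its reverse CCGCCC) was present in 74 of the 107 members, or 69.2%, against 48.2% of all 16521 promoters and 66.2% of the 10339 promoters of genes with an E14 median of at least 1 CPM. The members' share thus lay near that of expressed genes in general. The promoter of Egr2, a zinc finger transcription factor of the immediate early class, lies at chr10:67535249-67535548 on the plus strand and had 4 GC boxes, starting at -123, -102, -52, and -32 bases from the start. That of Etv5, an ETS transcription factor, lies at chr16:22439521-22439820 on the minus strand and had 3 GC boxes. That of Syn1, the gene of the synaptic vesicle protein synapsin, lies at chrX:20920869-20921168 on the minus strand and had none in this window. The 3 are printed as examples with 4, 3, and 0 matches, 5′ to 3′, with the GC boxes in capitals.
Egr2: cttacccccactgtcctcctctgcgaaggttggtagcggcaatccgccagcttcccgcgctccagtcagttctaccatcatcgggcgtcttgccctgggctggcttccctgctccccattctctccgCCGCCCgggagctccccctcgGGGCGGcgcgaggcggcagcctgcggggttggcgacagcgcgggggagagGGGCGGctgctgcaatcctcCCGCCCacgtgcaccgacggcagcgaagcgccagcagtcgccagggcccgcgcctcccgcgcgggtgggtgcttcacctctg
Etv5: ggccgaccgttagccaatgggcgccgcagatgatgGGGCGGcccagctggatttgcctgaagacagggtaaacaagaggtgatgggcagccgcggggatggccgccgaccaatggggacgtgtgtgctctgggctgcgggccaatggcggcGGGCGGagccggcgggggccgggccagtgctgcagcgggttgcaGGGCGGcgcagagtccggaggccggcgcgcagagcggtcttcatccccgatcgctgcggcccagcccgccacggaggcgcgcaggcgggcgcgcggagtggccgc
Syn1: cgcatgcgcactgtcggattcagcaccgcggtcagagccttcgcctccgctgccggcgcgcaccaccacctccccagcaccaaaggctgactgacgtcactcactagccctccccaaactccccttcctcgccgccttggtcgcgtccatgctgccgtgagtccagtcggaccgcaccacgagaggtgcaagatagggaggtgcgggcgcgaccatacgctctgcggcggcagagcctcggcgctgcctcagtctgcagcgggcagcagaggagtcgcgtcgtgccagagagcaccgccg

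The CCAAT box (CCAAT or ATTGG) was present in 30.8% of them against 38.6% for expressed genes, and the TATA box (TATAAA or TTTATA) in 8.41% against 6.54%. A LEF/TCF core (CTTTGA or TCAAAG), the site class of Wnt-dependent factors, was present in 10.3% against 11.5%, and a GLI core (CCACCCA or TGGGTGG), the site class of Hedgehog-dependent factors, in 6.54% against 9.72%. The AP-1 site (TGANTCA) was present in 4.67% against 4.38%, the E-box (CACGTG) in 6.54% against 9.98%, and the SMAD core (GTCTG or CAGAC) in 48.6% against 47.5%. In the Egr2 promoter the E-box at -27 overlaps the GC box at -32. The member promoters held a median of 24 CG dinucleotides and 66.3% GC, against 21 and 61.3% for expressed genes. The members' exons had a median GC content of 52.9% against 49.8% over the 13264 genes, and a median summed length of 4792 against 4656 bases.

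The highest peak ratios were those of Egr3, Nptx2, Syn1, Anks4b, Nptx1, and Egr2. Egr3, a zinc finger transcription factor like Egr2, at chr14:70077203-70082614 on the plus strand, had the highest ratio of 12.1. Its level was 1.40 to 8.03 CPM at E13 with a median of 3.36 CPM, 126 to 269 CPM at E14 with a median of 199.5 CPM, and 10.7 to 20.5 CPM at E16 with a median of 16.1 CPM. The lowest E14 tooth was thus far above the highest tooth of any other stage, and the E14 median was 59.4 times that of E13 and 12.4 times that of E16. Egr2 was a weaker gene in CPM at E14 and had the same order of stages. It had 0.451 to 2.14 CPM at E13, 12.9 to 19.9 CPM at E14, and 0.786 to 3.84 CPM at E16, with medians of 1.04, 15.03, and 2.94 CPM.

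Egr2 and Egr3 were the only 2 members among 18 listed immediate early genes, which cells switch on within minutes of a stimulus. The list is a selection and does not hold, for example, the members Arc and Nptx2. The E14 median was above both others for 12 of the 17 with an E14 median of at least 1 CPM, against 25.8% of all 13264 genes. Fos, the best known gene of the class, had 3.58 to 189 CPM over the E14 teeth with a median of 35.8 CPM, and 2.53 to 5.73 CPM over the E13 teeth. The E14 teeth thus differed widely in Fos. Fosb had at most 1.37 CPM in the E14 teeth of embryos 1, 2, and 3. It had 58.3 to 390 CPM in those of embryos 5, 6, and 8, against at most 1.97 CPM at E13. Fos divided the E14 teeth in the same way, whereas Egr2 and Egr3 did not. The E14 medians of Fos and Fosb are values of the higher teeth. How many of the 12 genes share this was not counted, so the 12 are not read as a trait of the stage. The left tooth of E14 embryo 8 had the highest Fos, 189 CPM, with the lowest Egr3, 126 CPM, and the lowest Egr2, 12.9 CPM. The right tooth of E14 embryo 1 had the lowest Fos, 3.58 CPM, with 191 CPM of Egr3 and 18.1 CPM of Egr2. The part of these differences between the E14 teeth in the levels of Egr2 and Egr3 was not tested. Egr1 behaved like Fos in the range of its E14 teeth, with 40.8 to 490 CPM, and was no member because E16 teeth reached 64.2 CPM.

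Nptx2 and Nptx1 encode secreted pentraxins that gather glutamate receptors at synapses. Nptx2 had 0.146 to 1.35 CPM at E13, 12.6 to 22.8 CPM at E14, and 0.337 to 1.55 CPM at E16, with medians of 0.581, 16.01, and 0.991 CPM and a peak ratio of 11.1. Nptx1 had 7.40 to 13.2 CPM at E13, 39.9 to 71.4 CPM at E14, and 5.95 to 14.7 CPM at E16, and its E13 and E16 medians of 10.6 and 10.9 CPM were nearly alike. Syn1 had 0.261 to 1.39 CPM at E13, 20.5 to 28.1 CPM at E14, and 0.505 to 2.94 CPM at E16, with a peak ratio of 8.51. Syn1 overlaps 4 other genes, among them Timp1 on the other strand, and the strand setting of the counting is not given in the sources used here. Gad1, the enzyme that makes the transmitter GABA, had 5.37 to 11.9 CPM at E14 against at most 1.41 CPM at E13 and 2.64 CPM at E16. Trim9, a ubiquitin ligase known from axon branching, had 15.01 to 28.7 CPM at E14 against at most 6.09 CPM at E13 and 4.18 CPM at E16. Htr5b, a serotonin receptor gene, and Ptprn, a membrane protein of dense-core vesicles, were weak, with E14 medians of 2.01 and 2.02 CPM and E13 medians of 0.104 and 0 CPM. The summed level of 11 neuron markers had medians of 36.6 CPM at E13, 33.4 CPM at E14, and 33.8 CPM at E16. The single markers moved in different directions. At E13, E14, and E16, Nefl had medians of 11.2, 4.57, and 0.368 CPM, and Tubb3 of 3.99, 12.1, and 12.1 CPM. Syt1 had 4.96, 7.84, and 5.27 CPM. No neuron marker was a member, but only 7 had an E14 median of at least 1 CPM, and 1.22% of all such genes were members.

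**Figure D1:**
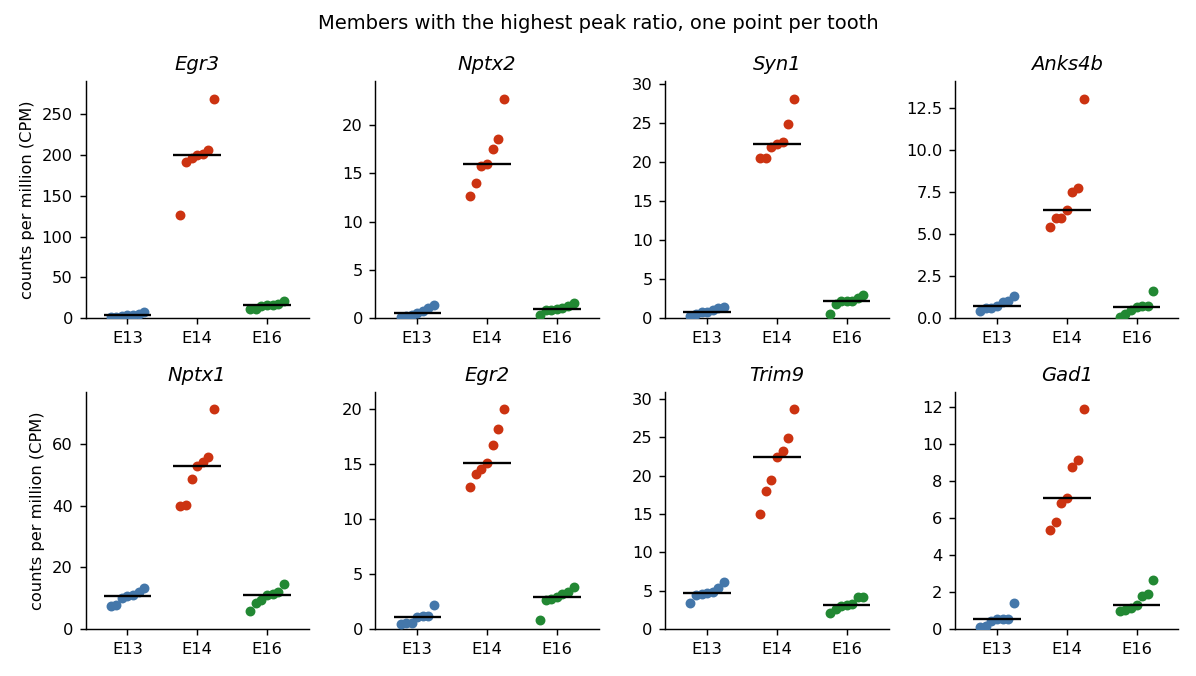
Levels in CPM (linear axes starting at 0) of the 8 members with the highest peak ratio outside the 6 signaling pathways, with 1 point per tooth, 7 teeth at each of E13, E14, and E16, and a line at the stage median. All E14 points lie above all other points, as the rule requires, and the gap is widest for Egr3, whose lowest E14 tooth had 126 CPM and whose highest other tooth had 20.5 CPM.

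Among the remaining leading members were receptors, ligands, and enzymes that modify sugars on proteins. Ret, the receptor tyrosine kinase for ligands of the GDNF family and 1 of 4 members on the list of dispensable keystone genes, had 9.99 to 15.3 CPM at E14 with a median of 13.02 CPM, against medians of 2.82 CPM at E13 and 1.97 CPM at E16. Gcnt4, a glycosyltransferase that branches O-linked sugars, had 13.02 to 20.9 CPM at E14 with E13 and E16 medians of 0.473 and 3.28 CPM. Galnt15, of the family that starts mucin-type O-glycosylation, had E13, E14, and E16 medians of 0.0451, 2.59, and 0.465 CPM. By median, Ret was thus lower at E16 than at E13 and both glycosyltransferases were higher. Anks4b, a scaffold protein of the brush border, had 5.44 to 13.1 CPM at E14 against at most 1.64 CPM elsewhere, and its highest E14 tooth was the left one of embryo 6. Ankrd63, an ankyrin repeat gene, had a median of 0.0430 CPM at E13, 7.52 CPM at E14, and 1.41 CPM at E16. Meox1, a homeobox transcription factor, had 24.1 to 29.4 CPM at E14, 2.71 to 11.4 CPM at E13, and 3.09 to 7.97 CPM at E16. Olfm2, a secreted olfactomedin, had medians of 2.41, 9.05, and 2.46 CPM at E13, E14, and E16. Tnfsf8, the ligand of CD30, and Oc90, a protein of the ear's otoconia, had E14 medians of 1.37 and 1.84 CPM and a highest level of 0.0861 CPM at E13. Pkhd1, a protein of primary cilia, had an E14 median of 2.71 CPM against 0.387 CPM at E13 and 0.516 CPM at E16.

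The members with the highest E14 levels had peak ratios of 1.14 to 1.64. Actb, the cytoplasmic beta actin, was the highest member also per length, with an E14 median of 1706 CPM per kilobase of exon. It had 4373 to 5048 CPM at E14 with a median of 4570 CPM, 3614 to 4040 CPM at E13, and 592 to 4204 CPM at E16, and its peak ratio was 1.15. Ccnd2, a cyclin of the G1 phase, had 1266 to 1498 CPM at E14 against 714 to 899 CPM at E13 and 436 to 870 CPM at E16. Its ratio of 1.58 was higher than that of the other members above 500 CPM. Col6a3 and Col6a2 encode chains of collagen VI, a beaded filament of the matrix around cells, and were the only members among 37 collagen genes with an E14 median of at least 1 CPM. Col6a3 had an E14 median of 1438 CPM against 1119 CPM at E13 and 1199 CPM at E16. Col6a2 had an E14 median of 557 CPM against 387 and 484 CPM.

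Tfap2b, an AP-2 transcription factor, had a lower median at E16 than at E13, with 366 to 534 CPM at E14, 256 to 325 CPM at E13, and 144 to 284 CPM at E16. Tril, an accessory protein of Toll-like receptors, had medians of 252, 413, and 236 CPM at E13, E14, and E16. The peak ratios of Cnn3 and Actn1, which bind actin, were 1.38 and 1.26, those of the RNA-binding Larp1 and the septin Sept11 were 1.17 and 1.14. Col6a2, Col6a3, Tril, and Sept11 were no longer members under at least 1 of 3 other scalings, whereas 29 of the 30 members with the highest peak ratio and 116 of all 162 were members under every scaling.

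**Figure D2:**
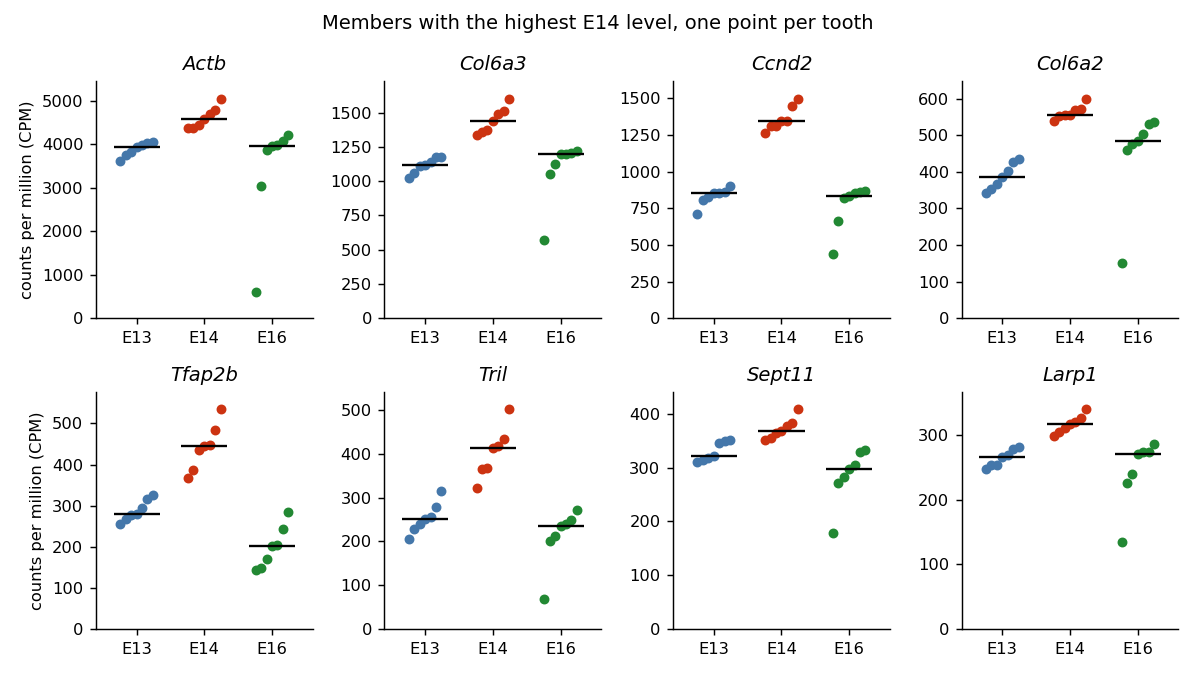
CPM (linear axes starting at 0) of the 8 members with the highest E14 median outside the 6 signaling pathways, with 1 point per tooth, 7 teeth a stage, and a line at the stage median. All E14 points lie above all other points, as the rule requires, with 540 against 536 CPM for Col6a2, 4373 against 4204 CPM for Actb, and 1266 against 899 CPM for Ccnd2, and the lowest E16 point in the panels of Actb, Col6a3, and Col6a2 is the left tooth of embryo 3.

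On the study's lists of the Fgf, Wnt, Tgfβ, Hedgehog, Notch, and Eda pathways, 249 genes had an E14 median of at least 1 CPM. Of these, 9 were members (3.61%), and 5 of the 9 were among the 51 ligands (9.80%), against 1.22% of all 13264 genes. Fgf15, a member described below, is not on these lists. The listed ligands were Fgf3, Fgf4, and the weaker Fgf1 of the fibroblast growth factors, Inhba, the subunit of activin A, and Tgfb1. Fgf3 had medians of 0.172, 22.4, and 11.7 CPM at E13, E14, and E16, Fgf4 of 0.252, 7.76, and 2.34 CPM, and Fgf1 of 1.40, 5.42, and 3.09 CPM. Fgf3 and Fgf4 are listed markers of the primary enamel knot, and no other of the 20 enamel knot markers was a member. Shh of the same list had medians of 3.94, 55.8, and 161 CPM and was thus highest at E16 by median. Inhba had 211 to 324 CPM at E14 against 114 to 138 CPM at E13 and 113 to 187 CPM at E16, and Tgfb1 had 76.7 to 93.8 CPM at E14 against at most 28.1 and 53.01 CPM. The receptor was Fzd1, for Wnt ligands, with medians of 133, 249, and 152 CPM. The intracellular members were Fbxw7, a ubiquitin ligase subunit that degrades Notch, with medians of 45.5, 74.1, and 43.4 CPM, and the kinase Csnk1g2, with a peak ratio of 1.13. The Notch target Hes1 had medians of 39.8, 55.2, and 37.2 CPM. Hes1 and Csnk1g2 were no members under at least 1 other scaling.

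Over the keystone lists of the study, which sort genes by how much their loss disturbs the tooth, 1 of 15 progression genes (Inhba), 1 of 28 shape genes (Fgf3), and 4 of 85 dispensable genes were members. These shares of 6.67%, 3.57%, and 4.71% rest on few genes and stand beside 1.22% of all 13264 genes. The 4 dispensable genes were Fgf1, Ret, the semaphorin Sema3b with 18.6 CPM, and the proteoglycan Spock1 with 123 CPM, as E14 medians. None of 11 double and 21 tissue genes was a member. Of 18 mitosis genes, 2 were members, the kinase Plk1 with medians of 64.5, 89.2, and 60.4 CPM and the cyclin Ccnb2 with 50.2, 59.0, and 45.3 CPM, of which Ccnb2 depended on the scaling. The E14 median was above both others for 17 of these 18 genes, against 25.8% of all 13264 genes. Most of the list thus leaned the same way without separating the teeth. This is a description of the teeth that the rule used, with no test. No member was found among the listed markers of dental epithelium, dental mesenchyme, endothelium, macrophages, red cells, muscle, cartilage, bone, Schwann cells, neurons, or cornified epithelium, nor among 80 cytosolic ribosomal proteins, 20 DNA replication genes, and 22 cholesterol synthesis genes. Over all 13264 genes the share of members was only 1.22%. Lists of these sizes can hold no member at that share, so nothing is read from their lack of members.

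The following 7 members were chosen after their values were seen, for their known roles, and no test was run on them as a group. Etv4 and Etv5 are ETS transcription factors induced by fibroblast growth factors. Etv4 had 62.6 to 85.8 CPM at E14 against 5.96 to 16.7 CPM at E13 and 32.9 to 51.3 CPM at E16. Etv5, whose promoter is shown above, had medians of 33.8, 79.2, and 43.3 CPM. Dusp6, Dusp4, and Dusp7 are phosphatases that switch off MAP kinases. Dusp6 had 221 to 329 CPM at E14 against 70.7 to 124 CPM at E13 and 80.8 to 151 CPM at E16. Dusp4 had medians of 6.17, 11.7, and 5.86 CPM, and Dusp7 of 131, 170, and 112 CPM. Spry1 and Spred2, inhibitors of signaling from receptor tyrosine kinases, had medians of 58.1, 81.3, and 55.8 CPM and of 90.4, 116, and 97.2 CPM. In all 7 the E13 and E16 teeth lay below E14, which the rule fixes, and the E13 level of Etv4 was the one far under its E16 level.

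Several members were neighbours in the genome. In the order of all annotated protein-coding genes, 5 pairs of members stood next to each other. How many such pairs a random set of this size would hold was not computed, so this is not read as a trait of the members. On chromosome 7, Fgf3 (144838083 to 144844436), Fgf4 (144847367 to 144865243), and Fgf15 (144896531 to 144900953) followed each other with gaps of 2930 and 31287 bases. Fgf15, an ileal and embryonic growth factor, had medians of 0.258, 2.69, and 0.352 CPM. Anks4b and Crym, also on chromosome 7, were 793 bases apart, Etv4 and Meox1 on chromosome 11 were 92138 bases apart, and Tfap2b and Pkhd1 on chromosome 1 were 819202 bases apart. Among chromosomes that held members, their share ran from 0.43% on the X chromosome, with 2 of 466 genes, to 2.67% on chromosome 18, with 10 of 374. Over all 13264 genes it was 1.22%. Another gene overlapped 81 members, of which 73 had one on the other strand. The share of all protein-coding genes with such an overlap was not computed, so this is not read as a trait of the members.

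**Figure D3:**
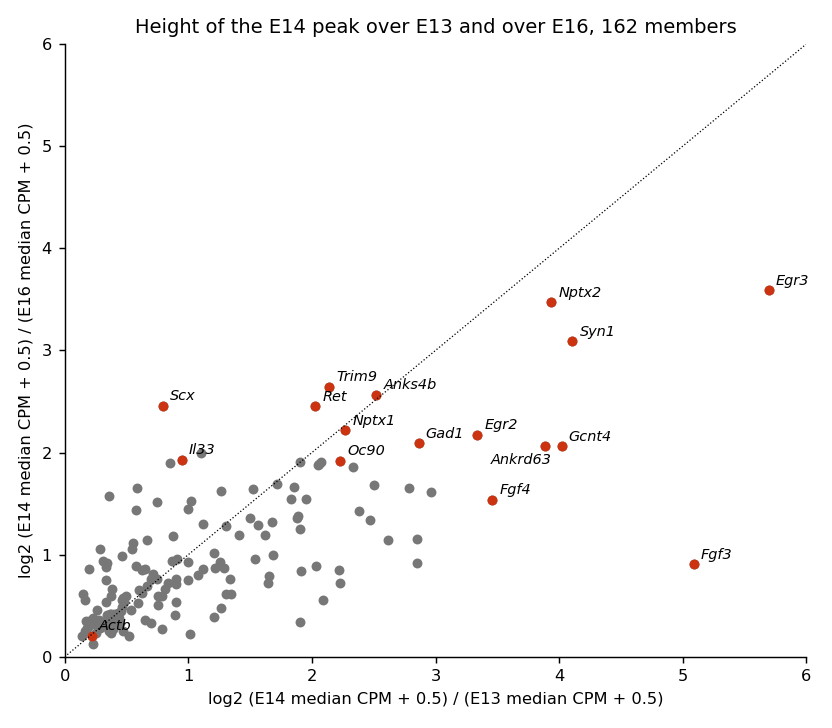
Log2 ratio of the E14 to the E13 median (x axis) against the log2 ratio of the E14 to the E16 median (y axis), with 0.5 CPM added to each median, for the 162 members. Points on the dotted line have equal E13 and E16 medians. Nptx1 lies near it, Fgf3 and Egr3 lie far to the right with low E13 levels, and Scx and Il33 lie above it with low E16 levels.

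The rule sets both stages below E14 but not against each other. The E16 and E13 teeth were compared by a test, on the same values that the rule held below E14, so the counts of members are a description beside those of all genes. In the quasi-likelihood test of edgeR over 19101 genes, with Benjamini-Hochberg adjustment over all of them and a threshold of 0.05, 40 of the 162 members (24.7%) were higher and 24 (14.8%) were lower at E16 than at E13. Of all genes tested, 21.6% were higher and 19.6% lower, and of those protein-coding genes with an E14 median of at least 1 CPM 24.0% were higher and 23.2% lower. The median log2 fold change was -0.004 over the members and -0.01 over all genes tested. Some teeth of a stage share an embryo, so these p-values partly measure the spread between teeth of 1 animal.

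Fgf3 had the highest rise, with a log2 fold change of 5.51 ± 0.39 (SE; adjusted p = 3.63e-11 in the edgeR test), from 0 to 1.09 CPM at E13 to 7.86 to 13.02 CPM at E16. The teeth of both stages were far apart. Ankrd63 rose by 3.63 ± 0.45 (adjusted p = 5.01e-07, edgeR), Gcnt4 by 2.66 ± 0.23 (7.79e-10), and Galnt15 by 2.66 ± 0.50 (1.3e-04). Oc90 was called with 2.75 ± 0.81 (adjusted p = 0.0083, edgeR), but its E16 teeth held only 0 to 0.372 CPM and overlapped the E13 teeth. Egr3 and Egr2 were also higher at E16, by 2.08 ± 0.27 (adjusted p = 7.53e-07, edgeR) and 1.504 ± 0.31 (3.2e-04). Of the 17 immediate early genes tested, 13 were higher and 1 lower at E16, and of the 20 enamel knot markers 17 were higher and 1 lower. Over all genes tested, 21.6% were higher and 19.6% lower.

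Scx, a transcription factor of tendon progenitors, fell most, with a log2 fold change of -2.18 ± 0.20 (adjusted p = 3.03e-09 in the edgeR test), from 2.97 to 7.53 CPM at E13 to 0.586 to 1.44 CPM at E16. Scx overlaps Bop1 on the other strand. Il33, a cytokine of barrier tissues, changed by -1.72 ± 0.34 (2.0e-04, edgeR), with medians of 1.18 CPM at E13 and 0.348 CPM at E16. Begain, a protein of the postsynaptic density, changed by -1.21 ± 0.09 (1.62e-10), the protocadherin Pcdhac2 by -1.14 ± 0.17 (8.62e-06), and the sulfotransferase Chst2 by -1.01 ± 0.15 (8.18e-06). For Chst2 every E13 tooth, 178 to 193 CPM, was above every E16 tooth, 42.0 to 119 CPM. Without the left tooth of E16 embryo 3, 56 members were higher and 27 lower at E16. The shares of all genes called in that fit are not given, so the move of the counts is not read as a trait of the members. Of the 63 Fgf pathway genes tested, 22 were higher and 11 lower at E16, against 21.6% and 19.6% of all genes tested.

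**Figure D4:**
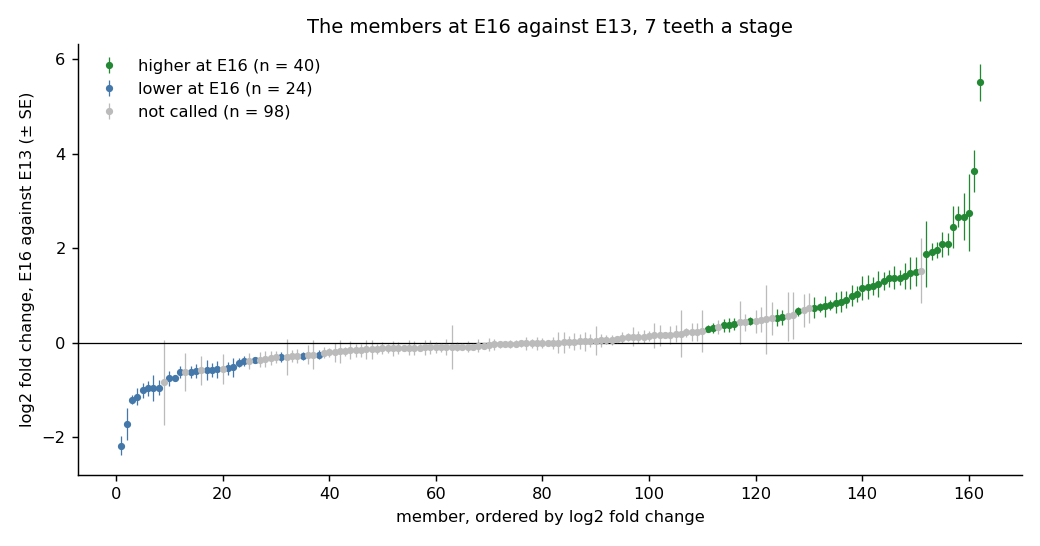
Log2 fold change of each of the 162 members at E16 against E13, ordered, with the standard error as bars, from the edgeR fit over 7 teeth a stage. The 40 members called higher are green, the 24 called lower are blue, and the 98 others are gray. The values run from -2.18 for Scx to 5.51 for Fgf3.

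The E15 teeth were not used to choose the members. They can be compared only with the E13 and E16 teeth of the second table, which lists 146 of the 162 members, and not with E14. Those E13 and E16 teeth are the ones the rule used, and the members were chosen for low values in them. A higher level at E15 is thus favored by the choice, and the counts of members are given beside those of all genes as a description, from which nothing is read about the set. For 5 of the 146 members every E15 tooth was above every E13 and E16 tooth, or 3.42%, against 0.148% of the 14156 protein-coding genes of the table. These were Nptx2, Prelp, Ptprq, Tmem150c, and Ldlrad4. Every E15 tooth was above every E13 tooth for 28 members (19.2%, against 6.89%) and above every E16 tooth for 14 (9.59%, against 1.14%). No member had every E15 tooth below all others, against 0.0706% of the genes. The E15 median was above both other medians for 69 members (47.3%, against 22.0%) and below both for 25 (17.1%, against 28.4%). The E15 teeth differed among themselves for some members. Kirrel had 319 to 366 CPM of estimated counts in embryos 1, 3, and 4. It had 199 to 206 CPM in embryos 5, 6, and 8. Ccna2 had 114 to 146 and 189 to 223 CPM in the same order. The tests below take the 6 teeth as like replicates. The paper describes no E15 mouse teeth, so a batch of their own cannot be told apart from stage. The source of these differences was not tested.

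The level of Nptx2 in CPM of the estimated counts was 1.997 to 3.23 over the 6 E15 teeth with a median of 2.63, 0.180 to 1.69 at E13, and 0.401 to 1.84 at E16. The margin was narrow. Prelp, a leucine-rich repeat proteoglycan of the matrix, had 25.8 to 61.9 at E15 with a median of 42.7, 5.15 to 13.2 at E13, and 5.48 to 25.1 at E16. Ptprq, a receptor-type phosphatase known from hair cells, had 3.21 to 10.6 at E15 with a median of 6.11, at most 3.17 at E13, and 0.498 to 2.27 at E16. Its highest E15 tooth was the left one of embryo 8, which had the lowest Egr3 of the stage, 9.75. Among the 16 members not listed in the second table were Oc90, Tnfsf8, Col6a3, and Ccnb2.

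Against E13, 48 of the 141 members tested (34.0%) were higher at E15 and 3 (2.13%) were lower in the edgeR test over 13447 genes, against 18.3% and 8.49% of all genes tested and 18.6% and 9.02% of those protein-coding genes with an E14 median of at least 1 CPM. The median log2 fold change was 0.21 over the members and 0.04 over all genes. The rule chose members for low values in these E13 teeth, which favors calls of higher levels at E15 and bears on the p-values below. No result is read from the excess. Fgf3 rose by 4.99 ± 0.48 (adjusted p = 3.12e-08), Ankrd63 by 4.41 ± 0.54 (1.25e-06), Egr3 by 3.16 ± 0.35 (3.01e-07), Gcnt4 by 2.74 ± 0.29 (1.72e-07), and Galnt15 by 2.62 ± 0.62 (0.0028), all in log2 by the edgeR test. Egr3 had 9.75 to 53.9 CPM of estimated counts at E15 with a median of 36.2, against 1.82 to 9.17 at E13, so the groups did not overlap but came close. The 3 members that fell were the membrane skeleton gene Ank1 (-0.95 ± 0.23, adjusted p = 0.0036), BC030867 (-0.60 ± 0.14, 0.0024), and Foxm1, a transcription factor of the G2 phase (-0.43 ± 0.10, 0.0027), again by edgeR. The count of 3 rested on the processing, since 7 members were lower with DESeq2 and 8 without the right E15 tooth of embryo 4. With the embryo number as a block, 35 members were higher and 2 lower, and Galnt15 and Ank1 were not called (adjusted p = 0.056 and 0.051, edgeR).

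Against E16, 20 of the 141 members tested (14.2%) were higher at E15 and 0 were lower, against 2.69% and 3.64% of all 13447 genes and 2.92% and 3.34% of the protein-coding genes with an E14 median of at least 1 CPM. The rule chose members for low values in these E16 teeth. That choice favors calls of higher levels at E15 and bears on the p-values below, so no result is read from the excess. At an unadjusted p under 0.05, 38 members were higher and 3 lower in the edgeR test, and DESeq2 called 23 higher and 1 lower. For these counts the shares over all genes are not given. Il33 was higher at E15 by 2.46 ± 0.45 in log2 (adjusted p = 0.0011, edgeR), Ptprq by 2.32 ± 0.32 (5.65e-05), Scx by 1.83 ± 0.23 (1.67e-05), Prelp by 1.33 ± 0.29 (0.0047), and Trim9 by 1.19 ± 0.17 (8.73e-05). Scx had 3.81 to 6.83 CPM of estimated counts at E15 and 0.952 to 1.87 at E16, with no overlap. Il33 ranged from 0.745 to 3.71 at E15 and from 0.0424 to 0.802 at E16, with a small overlap. Without the left tooth of E16 embryo 3, 5 members were called lower at E15, again with no share over all genes given.

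Of the 141 members tested, 11 passed both E15 tests upward. The share of all tested genes that did so is not given here. The choice of members for low E13 and E16 values favors such calls, so the count is only a description. They were Prelp, Ptprq, Tfap2b, Trim9, Inhba, Tmem150c, Ldlrad4, Ppp2r2b, Egflam, Anks1b, and the glutamate receptor subunit Gria1. Tfap2b had 378 to 562 CPM of estimated counts at E15 with a median of 515, and 158 to 306 at E16, and its difference from E16 was 1.15 ± 0.15 in log2 (adjusted p = 3.7e-05, edgeR). Inhba had 176 to 398 at E15 and 132 to 214 at E16, which overlap, with a difference of 0.97 ± 0.15 (1.4e-04, edgeR). In 71 members no difference was called in any of the tests, between E16 and E13 or between E15 and either. For this count too the share over all genes is not given.

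**Figure D5:**
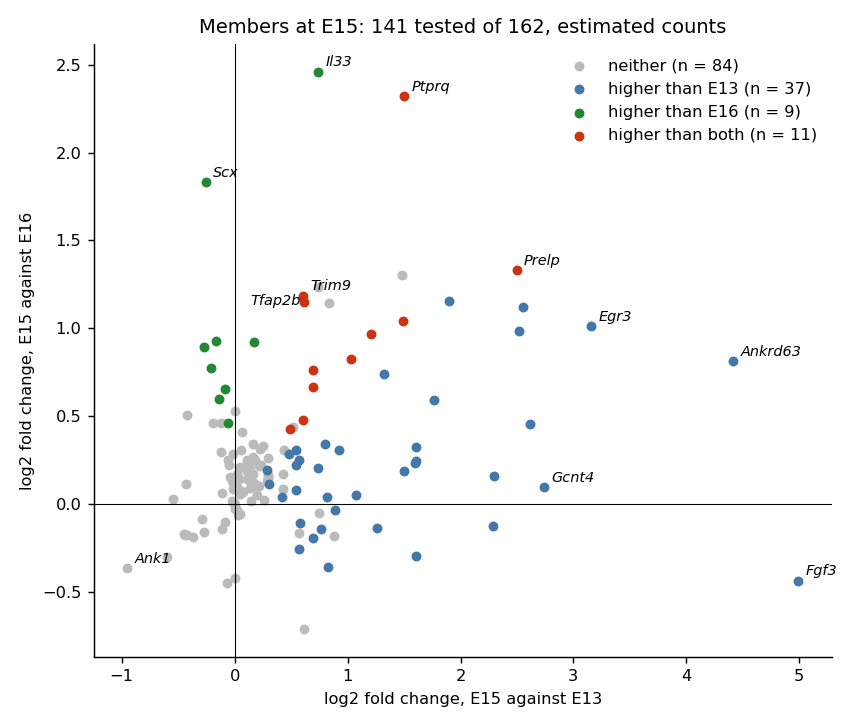
Log2 fold change of E15 against E13 (x axis) and of E15 against E16 (y axis) for the 141 members tested in the table of estimated counts, with 6 E15 teeth and 7 teeth each of E13 and E16, colored by the edgeR calls of higher levels at E15. Both axes share the E15 teeth, so the points lean together by construction. Fgf3 lies far to the right at 4.99 and Il33 at the top at 2.46, and 11 members were called higher in both tests.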

How the data were processed

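RNAseq libraries of single first molars were analyzed. The authors trimmed the reads with Trimmomatic, mapped them to GRCm38 (Ensembl release 90) by STAR, and deposited whole-number counts per gene made with HTSeq, without normalization. A second deposited table holds estimated counts of salmon for E13, E15, and E16, also whole numbers. The sample records name Salmon 0.99.0, and the index is not given in the sources used here. The column named for embryo X matched no single label and was assigned to E13 as a group. The only E13 label without HTSeq counts was the left tooth of embryo 10, and whether they are the same tooth was not tested. Membership used CPM over all counts of a library. Names, biotypes, and lengths came from GENCODE M21, in which 147 identifiers are absent. Stages were tested with edgeR 4.0.16 in R 4.3.3 (quasi-likelihood, TMM, filterByExpr, Benjamini-Hochberg over all genes tested), in one fit per table, and the procedure was tested on simulated data. Standard errors are the log2 fold change over the root of F. The coefficient of variation between teeth was 21.2% for the HTSeq counts and 22.7% for salmon, so the teeth limit the precision more than the depth except for weak genes. E15 libraries held 17572427 to 22792374 estimated counts, of 6 teeth.

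Members outside the 6 pathways were named when among the 20 highest peak ratios or 10 highest E14 medians, with listed members, neighbours, the 3 nearest the threshold on each side, and the 5 largest changes called in each direction. The members and lists were chosen with earlier results of these data known. Alternatives were the size factors, DESeq2 1.42.0, no filter, the minimum level, the salmon counts, summed teeth of an embryo, side or embryo number as a factor, and each tooth left out.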

Additional observations from a re-analysis of the deposited data

Results flagged for a closer look

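Of 120 groups of 6 or 7 teeth examined, which were the summary level of the members and 30 named members by stage, 18 had a tooth far from the others by Dixon's criterion, where chance flags about 1 in 20. The left E16 tooth of embryo 3 was the lowest in 10 of them. The median member level of this tooth on the log2 scale was -0.81, against -0.38 to -0.12 in the other E16 teeth. It had 592 CPM of Actb, 121 CPM of Actn1, 137 CPM of Cnn3, 151 CPM of Col6a2, and 568 CPM of Col6a3. It also had 0.786 CPM of Egr2, 135 CPM of Larp1, 178 CPM of Sept11, and 68.9 CPM of Tril. As the rule uses the highest E16 tooth, a low tooth does not make a gene a member.

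The left E14 tooth of embryo 6 was the highest with 13.1 CPM of Anks4b and 29.4 CPM of Meox1. The right E16 tooth of embryo 6 had 1.64 CPM of Anks4b, and the E13 tooth of embryo X had 1.41 CPM of Gad1. Among the E15 teeth, in CPM of the estimated counts, the left tooth of embryo 8 had 238 of Cnn3 and 11.3 of Meox1, the left tooth of embryo 5 had 3.40 of Htr5b, and the right tooth of embryo 6 had 4.52 of Syn1.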

How the results depend on the processing

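The number of genes peaking at E14 was 165 with TMM, 164 with DESeq2 size factors, and 125 with totals over protein-coding genes, of which 143, 139, and 117 were among the 162. It was 138 with a minimum of 5 CPM, 165 with none, 197 with the teeth of an embryo summed, and 162 to 192 with 1 tooth left out. Members lower at E15 than at E13 numbered 5 with DESeq2 size factors in edgeR, 7 with DESeq2, and 3 to 8 with 1 tooth left out, against 3, and 8 were found without the right E15 tooth of embryo 4. Members lower at E15 than at E16 numbered 1 with DESeq2 and 0 to 5 with 1 tooth left out, against 0, and 5 were found without the left E16 tooth of embryo 3. The cause was not tested. Leaving out 1 tooth gave 37 to 56 members higher and 19 to 27 lower at E16 than at E13, 44 to 49 higher at E15 than at E13, and 18 to 23 higher at E15 than at E16. The shares of all genes called under these settings are not given. The other 139 recomputed counts were within 1.5 times. Of 456 recomputed values of named members, 454 kept direction and call. With embryo number as a block, Galnt15 (3.08) and Ank1 (-0.95) lost the call between E15 and E13. Embryo numbers are not said to pair stages, and deviations of same-numbered teeth correlated by -0.44 to 0.37, so the block gave 32 members higher and 22 lower at E16 than at E13 as a check only. Depth limits members near 1 CPM, such as Oc90.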
